A study of Homo sapiens with 6 samples.

Results

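Focal adhesions are the contact points through which a cell grips the surrounding matrix, and 41 genes for their adaptor proteins, kinases and actin linkers were examined in clones of MiaPaCa2, a human pancreatic ductal adenocarcinoma cell line. The genes were taken by symbol from a count table of 26334 symbols, and all 41 were listed in it. They cover tensins, talins, vinculin, kindlins, alpha-actinins and filamins, the ILK, PINCH and parvin complex, focal adhesion and Src-family kinases, scaffold adaptors, the GIT and PIX proteins, the Ena/VASP family, LIM-domain proteins and caveolins. Messenger RNA was measured in 6 libraries, each from 2000 cells of 1 clone grown with 10% serum and prepared with SMART-Seq2, which primes on poly(A) tails and amplifies the cDNA. The WT group held 3 clones sorted as GFP-positive after electroporation of a plasmid for Cas9 and GFP (pSpCas9-2A-GFP), and the ZEB1-KO group held 3 clones sorted the same way after electroporation of that plasmid carrying a ZEB1 guide RNA. All clones thus passed through Cas9 exposure, sorting and single-cell outgrowth, and each replicate is 1 clone, so that a difference between groups also carries the differences between founder cells. ZEB1, the targeted gene, encodes a zinc-finger repressor of epithelial genes.

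In a focal adhesion, integrins bind matrix outside the cell while talin and kindlin bind the integrin tail inside it. Vinculin, alpha-actinin, filamin and the ILK complex then join the adhesion to actin filaments. The kinases FAK and Src phosphorylate paxillin and the Cas-family scaffolds, which recruit Crk adaptors and regulators of Rac and Cdc42, and zyxin and VASP act where actin grows and is under tension. Tensins link integrin tails to actin, and caveolins form the small membrane pits known as caveolae. In tumour cells, the makeup of these adhesions is known to differ between epithelial and mesenchymal states.

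Total counts per library lay between 18909305 and 42876693. Levels are given as CPM, the usual count unit relative to library size, here scaled by TMM (which balances the libraries on the genes they share), and 3 counts corresponded to 0.0687 to 0.150 CPM. ZEB1 stood at 34.0, 31.2 and 33.6 CPM in WT replicates 1, 2 and 3 and at 3.34, 3.46 and 11.5 CPM in ZEB1-KO replicates 1, 2 and 3, and its edgeR adjusted p was 0.0930. For ZEB1 the adjusted p was 0.0137 in edgeR without ZEB1-KO replicate 3 and 3.3e-05 in DESeq2, with a range up to 0.278 over its alternatives. Residual ZEB1 transcript was thus highest in ZEB1-KO replicate 3. Labels and files do not state where the edit lies within the gene. The epithelial markers KRT8, KRT18 and KRT19 were counted in every library, while the defining epithelial genes EPCAM and CDH1 had at most 4 counts. Summed markers of other cell types reached 11.2 CPM for blood, through CD14 in WT replicate 1, 3.14 CPM for endothelium, 0.156 CPM for fibroblasts and 1.80 CPM for smooth muscle. The summed epithelial markers, mostly KRT8 and KRT18, spanned 2152 to 3190 CPM in the WT group, below the 4064 to 5281 CPM of the ZEB1-KO group. KRT19 overlapped between groups, at 65.6, 237 and 138 CPM in WT and at 145, 337 and 321 CPM in ZEB1-KO clones. The summed mesenchymal markers, nearly all VIM, spanned 3046 to 3790 CPM in WT against 1343 to 2176 CPM in ZEB1-KO clones. CDH2 went the other way, with 1, 0 and 0 counts in WT and 3, 11 and 69 counts in ZEB1-KO libraries, and FN1 had 25 to 76 counts against 15 to 39. The part of this shift in the members' values was not tested. PTPRC had at most 3 counts and DCN, LUM, CD3E and HBB had 0 counts in every library.

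Of the 41 genes, 38 had enough counts for the test of ZEB1-KO against WT clones, and 1 of them, TNS4, was higher in ZEB1-KO clones past the threshold of 0.05 on the adjusted p (edgeR's quasi-likelihood test, adjusted over all 13659 genes tested). Over all genes tested, 0.117% were called higher, 0.0586% lower and 0.176% in either direction. Among the members 0 were lower at that threshold, while 2 were lower at an unadjusted p below 0.05 and 2 in DESeq2. DESeq2 called 3 members higher and 2 lower, beside 4.34% and 2.78% of all genes, and the likelihood ratio test of edgeR called 3 higher and 0 lower, beside 2.75% and 1.76%. At an unadjusted p below 0.05, 8 of the 38 members (21.1%) differed, beside 17.7% of all genes, with 6 higher (beside 9.64%) and 2 lower (beside 8.04%). The 3 ZEB1-KO clones did not overlap the 3 WT clones in CPM for 7 members (18.4%, beside 23.6% of all genes), with 5 above (beside 11.9%) and 2 below (beside 11.7%). The shares at an unadjusted p and without overlap were near those of all genes. A positive log2 fold change was found for 25 of the 38 members (65.8%, beside 49.4% of all genes). The members' median was 0.12, against -0.0082 over all genes. Without ZEB1-KO replicate 2 the members' median was -0.04, against -0.03 over all genes. For 1 gene alone, exact permutation of 3 against 3 clones has a smallest two-sided p of 0.1. Fewer cells that express a gene and less RNA per cell cannot be told apart in such libraries.

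**Figure D1:**
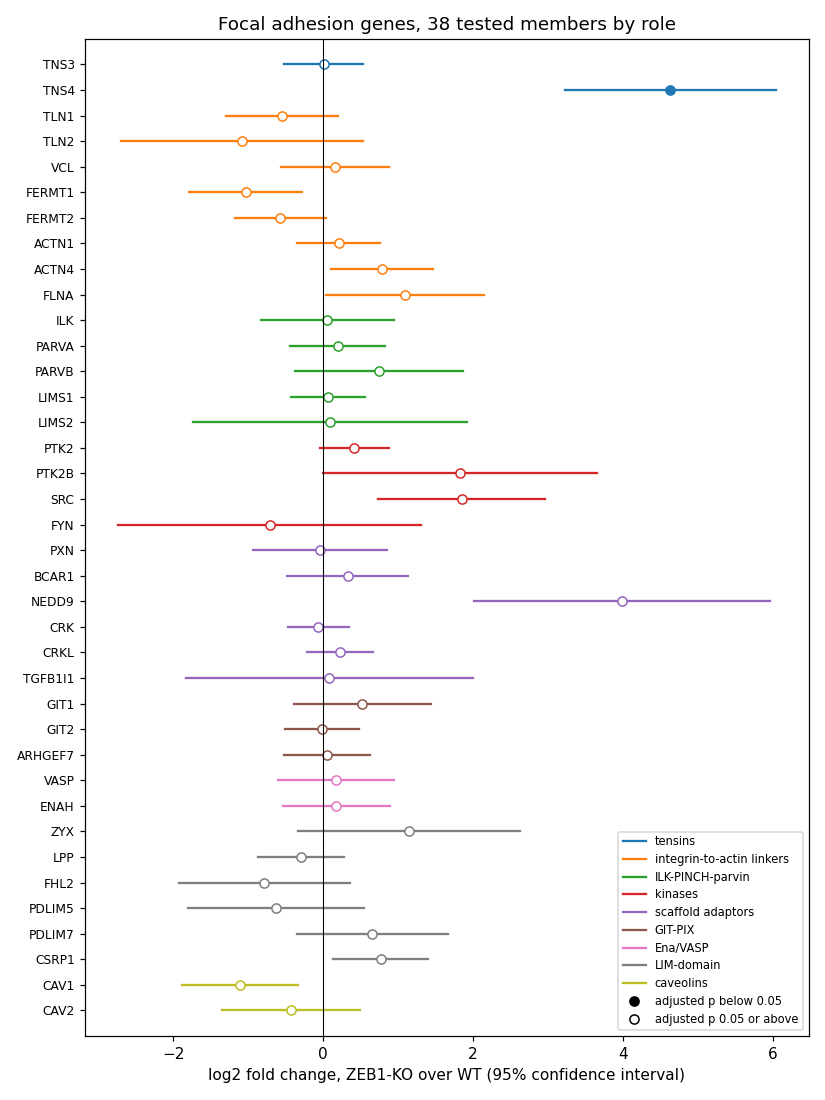
Log2 fold change of each of the 38 tested genes in ZEB1-KO over WT clones, with its 95% confidence interval from edgeR's quasi-likelihood fit (3 clones a group), coloured by role. TNS4 at 4.64 is the filled point past an adjusted p of 0.05; NEDD9, SRC, FLNA, ACTN4, CSRP1, FERMT1 and CAV1 have intervals that leave out 0 but open points.

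Among the tensins, the data separate TNS4 from TNS3. TNS4 encodes the short tensin known as Cten, which binds integrin tails through its C-terminal part but lacks the actin-binding region of other tensins. TNS4 stood at 0.344, 0.956 and 0.284 CPM in WT replicates 1, 2 and 3 (15, 31 and 7 counts) and at 18.1, 6.37 and 15.4 CPM in ZEB1-KO replicates 1, 2 and 3 (362, 258 and 496 counts). Every ZEB1-KO clone lay far above every WT clone, with replicate 2 the lowest of its group. The mean of TNS4 was 0.528 CPM ± 0.372 for WT and 13.3 CPM ± 6.13 for ZEB1-KO clones (SD, n = 3 each). In the edgeR fit TNS4 rose 24.9-fold, or by log2 4.64 (SE 0.61), with a 95% confidence interval of 3.23 to 6.04 (edgeR adjusted p = 0.0444). The edgeR adjusted p lay close to the threshold: it was 0.0439 without ZEB1-KO replicate 2, but 0.105 and 0.0745 with ZEB1-KO replicate 1 or 3 left out, and 0.0802, 0.0568 and 0.179 with WT replicate 1, 2 or 3 left out, with log2 fold changes of 4.36 to 5.38 in the fits that left out 1 library. Over all 18 alternatives, DESeq2 and limma included, its adjusted p ranged from 6.2e-15 to 0.179. The authors' deposited table gives TNS4 a log2 fold change of 4.63 (adjusted p = 1.8e-09).

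TNS3, a full-length tensin with actin-binding and phosphatase-like regions, stood at 80.4, 64.2 and 59.5 CPM in the WT clones and at 52.3, 76.3 and 76.3 CPM in the ZEB1-KO clones. The groups overlapped throughout. Its log2 fold change of 0.01 had a 95% confidence interval of -0.53 to 0.54. On the per-length TPM scale of the deposited table, TNS4 averaged 0.178 TPM ± 0.111 in WT and 5.46 TPM ± 2.27 in ZEB1-KO clones, beside 12.7 TPM ± 3.13 and 15.4 TPM ± 3.80 for TNS3 (SD, n = 3 each). TNS4 therefore remained below TNS3 in mean level in both groups. TNS1, another full-length tensin, had 0 counts in each WT library and 3, 0 and 3 in ZEB1-KO replicates 1, 2 and 3, at or below the floor of 3 counts, and any difference was beyond what this depth can show.

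Among the scaffold adaptors, NEDD9 had the second largest fold change of the 38 genes. NEDD9, also called HEF1 or Cas-L, is a Cas-family scaffold that is phosphorylated by FAK and Src and recruits Crk. NEDD9 had 5, 7 and 9 counts in WT replicates 1, 2 and 3 and 162, 54 and 48 counts in ZEB1-KO replicates 1, 2 and 3, or 0.115, 0.216 and 0.365 CPM against 8.08, 1.33 and 1.49 CPM. All ZEB1-KO values lay above all WT values, and replicate 1 stood well above the other ZEB1-KO clones. The WT mean was 0.232 CPM ± 0.126 and the ZEB1-KO mean 3.64 CPM ± 3.85 (SD, n = 3 each). The fitted 15.9-fold difference (log2 3.99, SE 0.86) did not pass 0.05 (edgeR adjusted p = 0.0980). For NEDD9 the adjusted p was 3.1e-05 in DESeq2. The authors' deposited table gives a log2 fold change of 3.98 (adjusted p = 0.00083). Without ZEB1-KO replicate 1 the fold change on the log2 scale was 2.65 (edgeR adjusted p = 0.171), and over 16 alternatives the adjusted p spanned 3.1e-05 to 0.278.

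The 250 bases before 2 of the 3 RefSeq start sites of NEDD9 (the third lies close to the first) are shown, a choice made after its values were seen, because, of the genes whose groups did not overlap and that have a RefSeq promoter window, it had the largest fold change. Windows came from RefSeq on GRCh38.p14, span 300 bases (250 before and 50 after a start site) and matched 35 of the 41 genes, while SRC, TNS4, FERMT1, PTK2B, PARVA and PTK2 did not match. Capitals mark CACCT or its reverse complement AGGTG, the core of the E-box letters that ZEB1 is known to bind, searched on both strands.
NEDD9 upstream start, chr6:11382349-11382598, minus strand: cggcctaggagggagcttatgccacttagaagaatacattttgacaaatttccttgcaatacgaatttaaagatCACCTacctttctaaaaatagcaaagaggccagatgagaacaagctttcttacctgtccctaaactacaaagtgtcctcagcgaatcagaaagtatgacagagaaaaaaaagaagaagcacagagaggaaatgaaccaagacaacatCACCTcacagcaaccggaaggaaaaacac
NEDD9 downstream start, chr6:11232669-11232918, minus strand: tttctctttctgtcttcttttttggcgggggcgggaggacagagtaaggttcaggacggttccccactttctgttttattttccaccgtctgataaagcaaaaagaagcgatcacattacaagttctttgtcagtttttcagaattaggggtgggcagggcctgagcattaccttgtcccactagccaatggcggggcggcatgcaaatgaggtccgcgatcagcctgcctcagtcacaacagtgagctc
The upstream-start sequence holds 2 copies of the short core and the downstream-start sequence holds 0. Neither holds the full letters CACCTG or CAGGTG, of which the short core is a part. Across the members, 15 of 84 windows (17.9%) held the full letters, beside 20.6% of all 35116 windows. Counted by gene, 11 of the 35 matched members (31.4%) held them in some window, beside 24.1% of 27305 genes, so that the order of the shares depended on the way of counting. The members had 84 windows for 35 genes, beside 35116 windows for 27305 genes. A gene with more windows has more places for a match, so the shares by gene are not on equal terms. The short core was in 52.4% of member windows, beside 51.6% of all windows. A match describes letters in a window only.

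The other scaffold adaptors overlapped between groups. BCAR1, the p130Cas scaffold and the closest relative of NEDD9 among the 41 genes, stood at 13.6, 15.2 and 13.8 CPM in the WT clones and at 17.5, 26.2 and 9.65 CPM in the ZEB1-KO clones, and its log2 fold change was 0.33 (95% confidence interval -0.48 to 1.14). The ZEB1-KO clones spanned the WT values on both sides. CRK, one of the adaptors that bind phosphorylated Cas proteins, showed the smallest spread, at 96.9, 91.6 and 101 CPM against 95.4, 91.1 and 90.8 CPM, and its log2 fold change was -0.06 (95% confidence interval -0.47 to 0.34). Its relative CRKL ranged from 48.6 to 62.6 CPM in WT and from 61.2 to 67.4 CPM in ZEB1-KO clones. PXN, the gene for paxillin, whose exons share 7.52% of their length with PXN-AS1 on the opposite strand, ranged from 38.9 to 63.4 CPM in WT and from 28.9 to 85.2 CPM in ZEB1-KO clones. TGFB1I1, which encodes the paxillin relative Hic-5, ranged from 1.14 to 4.17 CPM in WT and from 0.498 to 6.45 CPM in ZEB1-KO clones, so that its lowest and highest values both came from ZEB1-KO clones.

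Of the 4 kinase genes, 3 had positive log2 fold changes, beside 49.4% of all genes. At an edgeR adjusted p below 0.05, 0 were called, beside 0.176% of all genes. At an unadjusted p below 0.05 there was 1 (beside 17.7% of all genes), SRC, which DESeq2 also called (beside 4.34% called higher). SRC, the founding Src-family kinase and the partner of FAK in adhesion signalling, stood at 1.63, 1.05 and 0.891 CPM in WT and at 2.30, 6.99 and 3.61 CPM in ZEB1-KO clones. The groups did not overlap, and ZEB1-KO replicate 2 was the highest. Means were 1.19 CPM ± 0.387 for WT and 4.30 CPM ± 2.42 for ZEB1-KO clones (SD, n = 3 each), a fitted 3.60-fold difference (log2 1.85, SE 0.49, edgeR adjusted p = 0.123). SRC passed 0.05 in DESeq2 (adjusted p = 0.00812) and in the authors' deposited table (log2 fold change 1.84, adjusted p = 0.0264). Over all alternatives run, the adjusted p for SRC spanned 0.00812 to 0.327.

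PTK2, the gene for focal adhesion kinase, stood at 41.5, 45.2 and 35.7 CPM in WT and at 52.2, 61.0 and 49.9 CPM in ZEB1-KO clones. Each ZEB1-KO clone lay above each WT clone, though the log2 fold change was 0.41 with a 95% confidence interval of -0.05 to 0.88. PTK2B, which encodes the related kinase PYK2, had 22, 9 and 7 counts in WT and 54, 9 and 34 counts in ZEB1-KO libraries, with ZEB1-KO replicate 2 below all WT clones in CPM. The Src-family kinase gene FYN had 113, 8 and 16 counts in WT and 16, 8 and 38 counts in ZEB1-KO libraries. FYN had a log2 fold change of -0.71 that rested on WT replicate 1, since without that library it was 0.72. SRC thus had the only interval among the 4 kinase genes that left out 0, though that of PTK2B only just included it.

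Genes of the links from integrins to actin went in both directions, with 4 of 8 tested members positive and 4 negative. The quasi-likelihood test of edgeR called 0 of them, DESeq2 called 1 lower (FERMT1), and 3 had an unadjusted p below 0.05, beside 0.176%, 2.78% and 17.7% of all genes. FERMT1, which encodes kindlin-1, an activator of integrins found mainly in epithelia, stood at 17.6, 25.2 and 18.4 CPM in WT and at 13.9, 9.68 and 6.38 CPM in ZEB1-KO clones. The ZEB1-KO clones were all below the WT clones. Means were 20.4 CPM ± 4.19 for WT and 9.98 CPM ± 3.75 for ZEB1-KO clones (SD, n = 3 each), or 2.05-fold lower in the fit (log2 -1.03, SE 0.33, edgeR adjusted p = 0.168). The DESeq2 adjusted p for FERMT1 was 0.0498, and over all alternatives run it spanned 0.0498 to 0.394. FERMT2, the gene for the widely expressed kindlin-2, had values of 38.1, 68.8 and 56.6 CPM in WT and 30.6, 42.0 and 37.4 CPM in ZEB1-KO clones, overlapping between groups, with a log2 fold change of -0.57 (95% confidence interval -1.18 to 0.04).

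ACTN4, the gene for the actin crosslinker alpha-actinin-4, stood at 7.56, 6.91 and 9.36 CPM in WT and at 11.4, 18.5 and 11.0 CPM in ZEB1-KO clones. The groups did not overlap, and the log2 fold change of 0.78 had an edgeR p of 0.0293 before and 0.223 after adjustment. In GENCODE 29 the exons of ACTN4 share 624 bases, 12.6% of their length, with CAPN12 on the opposite strand, and reads of such a stretch cannot be assigned without strand. ACTN1, its relative, overlapped between groups, at 72.2, 69.6 and 102 CPM against 86.0, 115 and 80.5 CPM. FLNA, the gene for the actin crosslinker filamin A, stood at 18.7, 8.70 and 9.12 CPM in WT and at 16.4, 43.3 and 18.1 CPM in ZEB1-KO clones. For FLNA the log2 fold change of 1.09 (edgeR adjusted p = 0.269, 0.0446 before adjustment) dropped to 0.50 without ZEB1-KO replicate 2, the library with by far the highest value. FLNC, the muscle-type filamin gene, had 4 counts in WT replicate 3, 31 counts in ZEB1-KO replicate 2 and 0 counts elsewhere.

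VCL, the gene for vinculin, was among the highest of the 41 genes, at 221, 302 and 182 CPM in WT and 297, 329 and 159 CPM in ZEB1-KO clones, and its groups overlapped fully. The exons of VCL share 16.6% of their length with AP3M1 on the opposite strand. TLN1 and TLN2 encode the talins that join integrin tails to actin and vinculin. TLN1 ranged from 7.29 to 9.87 CPM in WT and from 3.92 to 7.78 CPM in ZEB1-KO clones, with a log2 fold change of -0.55 and a 95% confidence interval of -1.29 to 0.19. TLN2 had 105, 15 and 18 counts in WT libraries and 9, 12 and 31 counts in ZEB1-KO libraries. For TLN2 the log2 fold change of -1.09 shrank to -0.04 without WT replicate 1, so that this 1 clone set the difference.

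**Figure D2:**
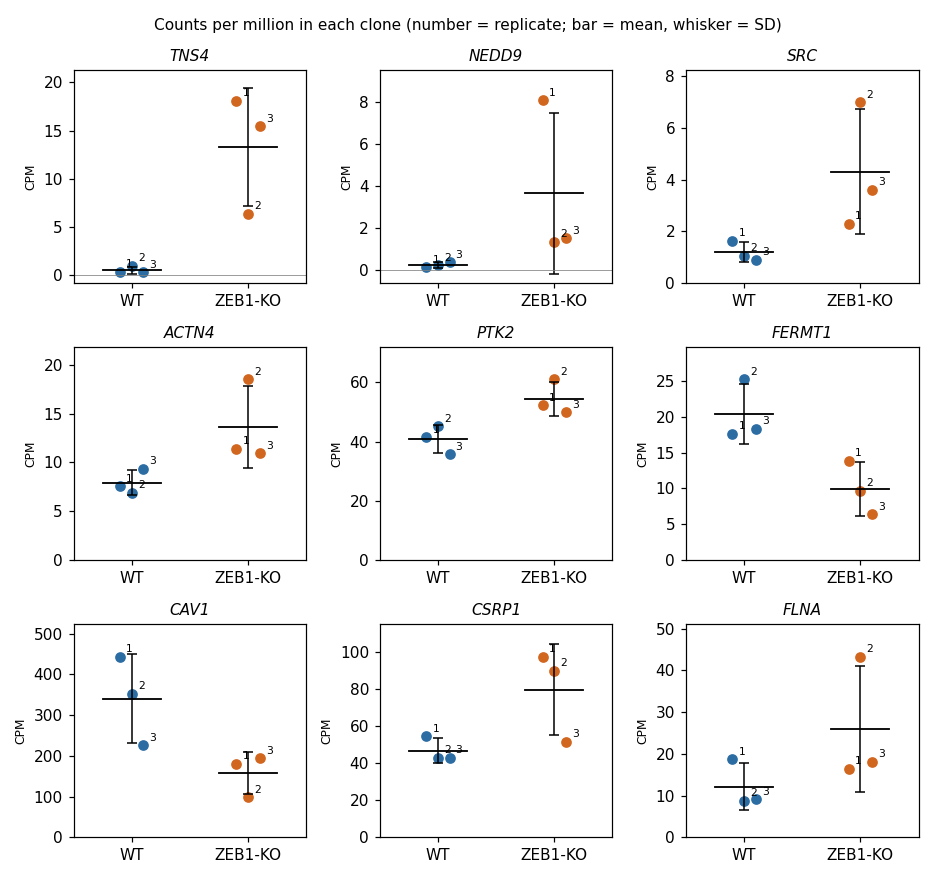
CPM in each clone for 9 genes, with WT in blue and ZEB1-KO in orange, the replicate number beside each point, the mean as a bar and the SD as a whisker (n = 3). TNS4, NEDD9, SRC, ACTN4 and PTK2 have all ZEB1-KO points above all WT points, FERMT1 and CAV1 have them below, and CSRP1 and FLNA overlap.

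The ILK, PINCH and parvin complex, which couples integrin tails to actin, showed no edgeR call (beside 0.176% of all genes) and no gene whose groups were separate (beside 23.6%). All 5 of its genes had positive log2 fold changes, from 0.06 to 0.75, beside 49.4% of all genes. The sign changed in some alternative for ILK, PARVA, LIMS1 and LIMS2. At an edgeR p below 0.05 before adjustment there were 0, beside 17.7%, and DESeq2 called 0, beside 4.34% higher and 2.78% lower. With 5 genes, counts of 0 say little about the complex. ILK, the gene for the pseudokinase at its centre, stood at 34.5, 16.6 and 36.9 CPM in WT and at 30.2, 42.9 and 18.5 CPM in ZEB1-KO clones, and 13.1% of its exon length is shared with the antisense gene AC091564.2. PARVA, which encodes alpha-parvin, ranged from 25.6 to 35.2 CPM in WT and from 23.6 to 44.7 CPM in ZEB1-KO clones. LIMS1, the gene for PINCH-1, had one of the narrower intervals (-0.42 to 0.56 around a log2 fold change of 0.07), although near-identical LIMS copies elsewhere in the genome make its count uncertain. PARVB and LIMS2, for beta-parvin and PINCH-2, were lower expressed, at 2.13 to 8.57 CPM and at 0.123 to 1.05 CPM over the 6 libraries.

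The GIT and PIX genes, whose proteins form a complex that regulates Rac, Cdc42 and Arf at adhesions, and the Ena/VASP genes, whose proteins extend actin filaments, overlapped between groups. GIT2 varied least, from 14.3 to 15.7 CPM in WT and from 14.1 to 16.0 CPM in ZEB1-KO clones. ARHGEF7, the gene for beta-PIX, ranged from 12.4 to 18.4 CPM and from 15.4 to 18.9 CPM. GIT1 ranged from 8.02 to 10.0 CPM in WT, against 6.72 to 20.5 CPM in ZEB1-KO clones, where replicate 2 was high. VASP ranged from 13.9 to 22.9 CPM in WT and from 15.0 to 32.0 CPM in ZEB1-KO clones. ENAH, the gene for Mena, stood at 144, 250 and 117 CPM in WT and at 231, 195 and 152 CPM in ZEB1-KO clones. EVL had at most 2 counts in any library, so that ENAH and VASP were the family members expressed at a measurable level.

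LIM-domain genes split evenly, 3 positive and 3 negative, and 1 gene had an unadjusted edgeR p below 0.05, beside 17.7% of all genes. The quasi-likelihood test of edgeR called 0, beside 0.176% of all genes. DESeq2 called 0 as well, beside 4.34% higher and 2.78% lower. CSRP1, which encodes a LIM protein of actin bundles, stood at 54.4, 43.0 and 42.9 CPM in WT and at 97.3, 89.8 and 51.5 CPM in ZEB1-KO clones. ZEB1-KO replicates 1 and 2 were above all WT clones, and replicate 3 was not. The CSRP1 difference, 0.77 on the log2 scale, had an edgeR p of 0.0226 before and 0.203 after adjustment. An antisense gene, AC096677.1, shares 6.89% of the CSRP1 exon length. ZYX, the gene for the tension-sensitive protein zyxin, ranged from 5.15 to 13.1 CPM in WT clones and stood at 14.9, 38.7 and 5.48 CPM in ZEB1-KO clones. The ZYX log2 fold change of 1.15 dropped to 0.19 without ZEB1-KO replicate 2. PDLIM7, for the adaptor enigma, ranged from 12.0 to 25.8 CPM in WT and from 16.3 to 48.9 CPM in ZEB1-KO clones, and its log2 fold change went from 0.66 to 0.09 when that library was left out. FHL2, a LIM-only cofactor gene, stood at 28.8, 17.4 and 67.5 CPM in WT and at 15.5, 18.3 and 32.0 CPM in ZEB1-KO clones. The FHL2 log2 fold change of -0.79 became -0.07 without WT replicate 3. PDLIM5 ranged from 55.7 to 137 CPM in WT and from 32.8 to 125 CPM in ZEB1-KO clones, and LPP, a zyxin relative, from 79.6 to 132 CPM and from 72.2 to 98.3 CPM.

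CAV1 had the highest mean level per length of the 41 genes and lay lower in ZEB1-KO clones. It encodes caveolin-1, the main coat protein of caveolae and a binding partner of Src-family kinases. CAV1 stood at 444, 353 and 226 CPM in WT replicates 1, 2 and 3 and at 181, 98.1 and 195 CPM in ZEB1-KO replicates 1, 2 and 3. The groups did not overlap, with WT replicate 3 close to ZEB1-KO replicate 3. Means were 341 CPM ± 109 for WT and 158 CPM ± 52.2 for ZEB1-KO clones (SD, n = 3 each), or 2.16-fold lower in the fit (log2 -1.11, SE 0.34, edgeR adjusted p = 0.151). DESeq2 gave an adjusted p of 0.0406, and the authors' deposited table lists 0.0532. Over all alternatives run, the adjusted p for CAV1 spanned 0.0406 to 0.332. On the TPM scale the groups of CAV1 did overlap, with 86.4 TPM in WT replicate 3 and 88.2 TPM in ZEB1-KO replicate 3. On that scale the median log2 fold change of all genes was 0.20 to 0.27 in the limma fits, against -0.0082 in the main fit. CAV2, the partner of caveolin-1, stood at 62.9, 171 and 60.0 CPM in WT and at 84.6, 65.1 and 68.6 CPM in ZEB1-KO clones. WT replicate 2 alone was high, and without it the log2 fold change of -0.43 became 0.25.

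The 250 bases before the first CAV1 start site are shown, also chosen after its values were seen, because it was the one gene below WT in every ZEB1-KO clone that has a RefSeq window (GRCh38.p14).
CAV1, chr7:116524759-116525008, plus strand: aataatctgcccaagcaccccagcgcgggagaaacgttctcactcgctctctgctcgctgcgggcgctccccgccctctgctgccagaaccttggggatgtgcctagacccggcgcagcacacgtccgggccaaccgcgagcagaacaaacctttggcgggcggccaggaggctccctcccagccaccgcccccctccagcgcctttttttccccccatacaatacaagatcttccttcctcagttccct
It holds 0 copies of CACCT or AGGTG on either strand, and therefore no capitals appear in it. Further RefSeq start sites of CAV1 are not shown, and the short core is not given for them. The short core was in 51.6% of all windows, so its absence from a single stretch says little.

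In the deposited TPM table, which listed 34 of the 41 genes, the 5 highest means over all libraries were those of CAV1 at 103 TPM, VCL at 71.1 TPM, CRK at 45.7 TPM, CSRP1 at 43.7 TPM and CAV2 at 39.0 TPM. VCL had 62.3, 71.5 and 46.5 TPM in WT and 88.0, 110 and 48.0 TPM in ZEB1-KO clones. CRK had 46.5, 36.9 and 43.9 TPM and 48.0, 52.1 and 46.7 TPM. The groups of VCL overlapped, and the lowest ZEB1-KO value of CRK lay just above its highest WT value. CSRP1 had 36.3, 24.0 and 25.8 TPM in WT and 68.0, 71.3 and 36.7 TPM in ZEB1-KO clones, and its groups were barely separate. In CPM the groups of CRK and of CSRP1 overlapped, and on the TPM scale all genes are shifted toward ZEB1-KO in the median. CAV2 had 29.5, 67.0 and 25.4 TPM against 41.5, 36.3 and 34.4 TPM. Means of at least 10 TPM were found for 18 genes and means below 5 TPM for 13, among them the 3 genes called higher in the authors' deposited table, TNS4, NEDD9 and SRC. These 3 were the members past its threshold in the higher direction, with 0 in the lower, beside 2.82% and 1.92% of its 11013 genes.

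**Figure D3:**
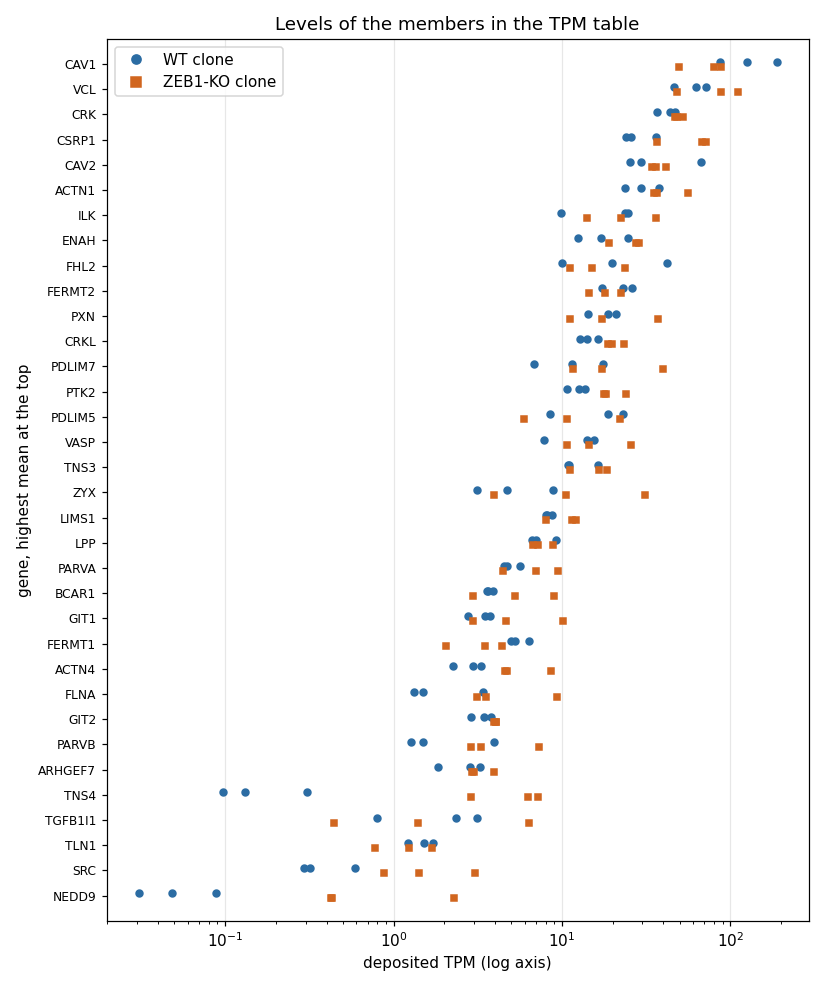
Deposited TPM of the 34 listed genes in each WT clone (blue circles) and each ZEB1-KO clone (orange squares), ordered by mean level, on a log axis. CAV1 and VCL are at the top, and TNS4, SRC and NEDD9, with the widest gaps between groups, are among the lowest.

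Clones of 1 group differed widely from each other. The median SD of log2 CPM over the 38 genes was 0.42 among WT clones and 0.55 among ZEB1-KO clones, beside 0.32 and 0.37 over all genes tested. ZEB1-KO replicate 2 had the highest CPM of the 6 libraries for 18 of the 38 genes (47.4%), beside 23.2% of all genes tested. These 18 were VCL, ACTN1, ACTN4, FLNA, ILK, PARVA, PARVB, PTK2, SRC, PXN, BCAR1, CRKL, TGFB1I1, GIT1, ARHGEF7, VASP, ZYX and PDLIM7. ZEB1-KO replicate 3 was the highest library for 1 of the 38 genes, beside 14.7% of all genes. It was the lowest for 9, a number WT replicate 2 shared. The share of all genes lowest in each library was not counted, so this number has no background. ZEB1-KO replicate 2 had the largest total count of its group, 36798770, and the largest TMM factor of the 6 libraries, 1.10, and the part of depth and scaling in this pattern was not tested. TNS4, by contrast, was lowest in replicate 2 among the ZEB1-KO clones.

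**Figure D4:**
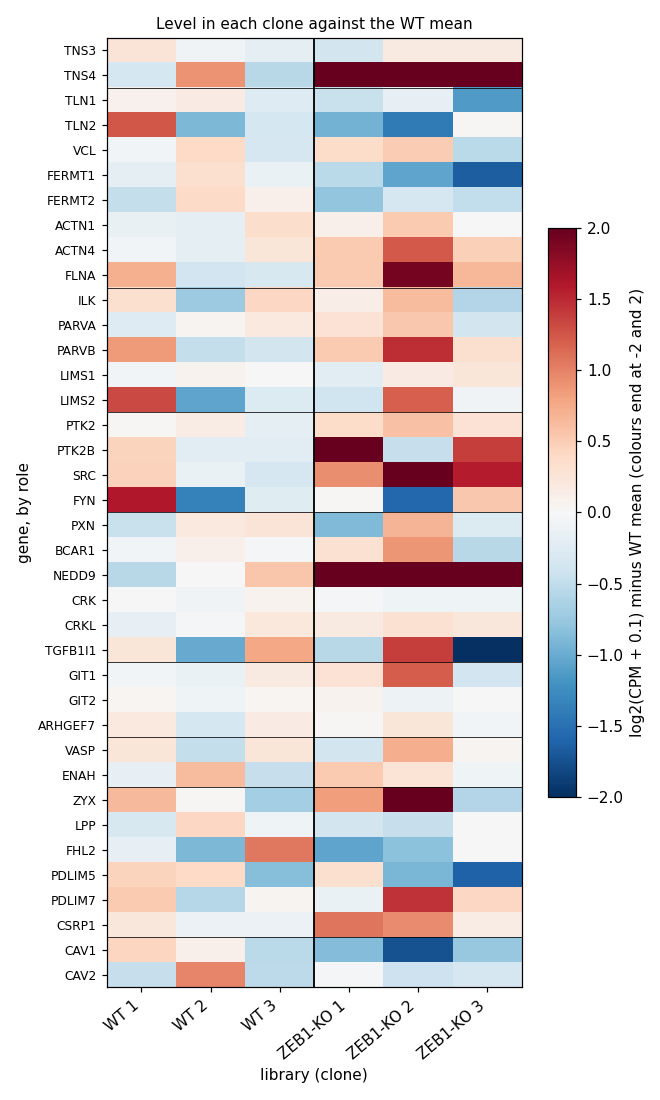
Level of each of the 38 tested genes in each clone as log2(CPM + 0.1) minus the mean of the 3 WT clones, with genes in rows by role (thin lines separate roles), clones in columns, red above and blue below the WT mean, and colours ending at -2 and 2. TNS4 and NEDD9 are red in all 3 ZEB1-KO clones, CAV1 and FERMT1 blue in all 3, and ZEB1-KO replicate 2 is red for FLNA, ZYX, SRC, PARVB and PDLIM7.

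Genes beyond the 41 gave the setting of these values. Of 20 integrin chain genes 12 were tested, 1 was called higher and 0 lower in edgeR's quasi-likelihood test, beside 0.117% and 0.0586% of all genes. The likelihood ratio test of edgeR called 1 higher and 1 lower, beside 2.75% and 1.76%. Before adjustment, 2 were higher and 3 lower with a p below 0.05 (beside 9.64% and 8.04% of all genes), and DESeq2 called 1 higher and 1 lower (beside 4.34% and 2.78%). The groups did not overlap in CPM for 5 of the 12, 2 above (beside 11.9%) and 3 below (beside 11.7%). ITGA2, the collagen-binding alpha-2 chain, rose from 0.504, 0.709 and 0.203 CPM in WT to 9.68, 5.68 and 19.5 CPM in ZEB1-KO clones, or 4.59 on the log2 scale (edgeR adjusted p = 0.0460). DESeq2 also called ITGA2 higher, and the chain it called lower was ITGA10, another collagen-binding alpha chain. ITGA10 stood at 0.893, 2.84 and 4.74 CPM in WT and at 0.848, 0.568 and 0.654 CPM in ZEB1-KO clones, a log2 fold change of -2.03. Its adjusted p was 0.144 in edgeR's quasi-likelihood test, 0.0481 in edgeR's likelihood ratio test and 0.0227 in DESeq2. ITGA10 and ITGB1 fall outside the rule for named genes and were picked with their values in view. ITGB1, the beta chain that pairs with alpha-2 and many other alpha chains, stood at 613, 1005 and 660 CPM in WT and at 519, 401 and 256 CPM in ZEB1-KO clones (log2 fold change -0.95, adjusted p = 0.174 in edgeR and 0.0646 in DESeq2).

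Of 26 other adhesion adaptor genes listed 22 were tested, and edgeR's quasi-likelihood test called 0, beside 0.176% of all genes. Before adjustment 4 were higher and 2 lower with a p below 0.05, beside 9.64% and 8.04% of all genes, and DESeq2 called 1 higher and 2 lower, beside 4.34% and 2.78%. The likelihood ratio test of edgeR called 2 higher and 2 lower, beside 2.75% and 1.76%. The groups did not overlap in CPM for 8 of the 22, 7 above (beside 11.9%) and 1 below (beside 11.7%). PTRF and PRKCDBP encode cavin-1 and cavin-3, coat proteins of caveolae. PTRF stood at 176, 77.0 and 212 CPM in WT and at 29.9, 80.5 and 45.7 CPM in ZEB1-KO clones, a log2 fold change of -1.58 (DESeq2 adjusted p = 0.0128). PRKCDBP stood at 17.7, 20.4 and 76.8 CPM in WT and at 1.35, 7.11 and 6.97 CPM in ZEB1-KO clones, a log2 fold change of -2.88 (DESeq2 adjusted p = 0.00040). Neither passed in edgeR's quasi-likelihood test (adjusted p = 0.141 and 0.121). Both passed in edgeR's likelihood ratio test (adjusted p = 0.0337 and 0.00865) and in the authors' deposited table (adjusted p = 0.0336 and 0.0220). FHL3, a LIM-only gene, stood at 1.03, 0.617 and 0.932 CPM in WT and at 2.74, 4.74 and 1.87 CPM in ZEB1-KO clones, a log2 fold change of 1.86 (adjusted p = 0.115 in edgeR and 0.00733 in DESeq2). PDLIM1, a PDZ and LIM gene, had a log2 fold change of 5.46 that came from 567 CPM in ZEB1-KO replicate 1 against 7.06 and 20.8 CPM in replicates 2 and 3 and 5.27, 6.29 and 1.82 CPM in WT clones. For PDLIM1 the adjusted p was 0.138 in edgeR's quasi-likelihood test and 0.00768 in its likelihood ratio test, and DESeq2 gave none. The authors' deposited table lists an adjusted p of 0.0475 for it.

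Of 30 genes of signalling downstream of adhesions 29 were tested, and edgeR's quasi-likelihood test called 0, beside 0.176% of all genes. Before adjustment 3 were higher and 2 lower with a p below 0.05, beside 9.64% and 8.04% of all genes, and DESeq2 called 2 higher, ASAP1 among them, beside 4.34%. The groups did not overlap in CPM for 7 of the 29 genes, 4 above and 3 below, beside 23.6% of all genes, so that these shares were near those of all genes. ASAP1, a regulator of Arf proteins that binds FAK and Src, stood at 36.0, 43.9 and 39.6 CPM in WT clones. In ZEB1-KO clones it stood at 107, 67.8 and 68.7 CPM, a log2 fold change of 1.02. The adjusted p for ASAP1 was 0.110 in edgeR's quasi-likelihood test and 0.00958 in DESeq2. It was 0.0261 in edgeR's likelihood ratio test and 0.0292 in the authors' deposited table. ROCK1, a kinase that drives actomyosin contraction, stood at 92.1, 91.6 and 77.1 CPM and at 52.9, 43.0 and 59.6 CPM, a log2 fold change of -0.75. RAC1, a small GTPase of membrane protrusion, stood at 448, 435 and 376 CPM in WT and at 292, 249 and 329 CPM in ZEB1-KO clones, a log2 fold change of -0.53.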

How the data were processed

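Gene levels came from 6 SMART-Seq2 libraries. Per the file headers, the deposited files hold whole-number counts for each symbol, TPM values of 11013 genes, and, for those genes, the authors' log2 fold change, average log2 CPM, likelihood ratio score, p-value and FDR. TopHat2 2.1.0, HTSeq 0.6.1, edgeR 3.2.2 and the builds hg19 and GRCh37 are named in the submitters' processing notes, without settings. SMART-Seq2 records no strand and no molecular identifiers, so that reads of overlapping genes cannot be told apart and floors and counts cover counting error only.

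The fit used edgeR 4.0.16 under R 4.3.3: filterByExpr (minimum count 10, total 15) left 13659 genes, libraries were TMM-scaled, and glmQLFit and glmQLFTest compared the groups, with two-sided p-values adjusted by Benjamini-Hochberg across these genes and a threshold of 0.05. SEs and intervals were derived from the F statistic and 8.35 total degrees of freedom. Exon overlaps came from GENCODE 29 and promoters from RefSeq, by symbol. Alternatives were other scaling factors, other filters, DESeq2 1.42.0, edgeR's likelihood ratio test, limma 3.58.1 (voom, and on log2 TPM with pseudocounts of 1 or 0.1), a replicate block, and leaving out each library. Tests were tried on simulated data. Groups and replicate numbers came from sample titles. Replicates were separate clones, while nothing gives culture days or library batches.

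The members, lists and tests were chosen with earlier results of these data known. Values in each library are given for members past the threshold, with an unadjusted p below 0.05, with groups that did not overlap, or among the 5 highest mean TPM, and from each pathway list for members past the threshold or else the 4 smallest unadjusted p-values, of which 1 is not reported here. The other members are given by ranges or values, and the short E-box core was searched after the full letters.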

Additional observations from a re-analysis of the deposited data

How the results depend on the processing

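Of the 38 tested genes, 21 kept the sign of their log2 fold change in every alternative run and 17 changed it in at least 1. The count of members called higher was 1 (TNS4), against 2 without a filter (with NEDD9), 3 with DESeq2 and 3 with edgeR's likelihood ratio test (with NEDD9 and SRC), and 0 with limma-voom, where TNS4 had an adjusted p of 0.0513; it ranged from 0 to 1 without each library. Members called lower were 0, against 2 with DESeq2 (CAV1 and FERMT1). With the replicate block 0 members were called higher, with an adjusted p of 0.0852 for TNS4. Deviations of same-numbered clones correlated at 0.02, 0.0071 and 0.22. The best match of WT replicate 1 was ZEB1-KO replicate 2, while that of WT replicate 3 was ZEB1-KO replicate 3. With 3 clones a group, such correlations cannot tell whether same-numbered clones shared a culture day or a library batch. Over all genes, 16 were called higher and 8 lower, against 87 and 47 without a filter, 570 and 365 with DESeq2, 376 and 241 with the likelihood ratio test, 82 and 19 (TPM + 1), 76 and 18 (TPM + 0.1) and 63 and 17 (TPM + 1, no filter) with limma, and 3 to 16 and 2 to 10 without each library. The median log2 fold change of all genes was -0.0082 in the main fit and 0.14 with library size alone. In the TPM fits, in the order above, it was 0.23, 0.27 and 0.20. Signs that turned, all without a call, included CAV2 (0.013, 0.016 and 0.013 in the TPM fits in the order above), CRK (0.083 with library size alone; 0.21, 0.21 and 0.21 with TPM), GIT2 (0.0011 with upper quartile factors, 0.13 with library size alone; 0.20, 0.26 and 0.20 with TPM), PXN (0.13 with library size alone; 0.12, 0.12 and 0.12 with TPM), TGFB1I1 (-0.38 with limma-voom, -0.15 with TPM + 0.1, -0.50 with the replicate block) and TNS3 (-0.00024 with 1 CPM in 3 libraries, -0.00062 with limma-voom, -0.0013 with the replicate block). Leaving out each library gave log2 fold changes of -0.095 to 0.17 for ARHGEF7, -0.067 to 0.63 for BCAR1, -0.68 to 0.25 for CAV2, -0.029 to 0.57 for ENAH, -1.32 to 0.72 for FYN, -0.014 to 0.83 for GIT1, -0.051 to 0.037 for GIT2, -0.27 to 0.32 for ILK, -0.024 to 0.20 for LIMS1, -0.74 to 1.43 for LIMS2, -0.018 to 0.41 for PARVA, -0.58 to 0.25 for PXN, -1.40 to 0.58 for TGFB1I1, -0.082 to 0.17 for TNS3, -0.18 to 0.39 for VASP and -0.045 to 0.41 for VCL. The cause of these changes was not tested. Depth limits what can be said of TNS1, FLNC and EVL, which had too few counts to test.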
